A study of Mus musculus with 9 samples.

Results

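The genes described here are 10 genes of the response to endoplasmic reticulum (ER) stress, chosen by name: Hspa5, Ddit3, Atf4, Xbp1, Trib3, Herpud1, Sdf2l1, Creld2, Manf and Dnajb9. They are targets or transcription factors of the XBP1, ATF6 and ATF4 arms of that response, and they make up 10 of the 55401 entries of the table. Their names matched 11 rows, because Ddit3 has a second row (ENSMUSG00000116429) that held an estimated count of 1 in every library and was left aside. The study sequenced poly(A) RNA of mouse colonic tissue in 9 libraries, 3 in each of 3 groups, all labelled wild type, and asks about the action of berberine, a plant alkaloid, against tumours. The berberine group (BBR) is given by that treatment alone, with neither its diet nor AOM/DSS in its labels. The high-fat diet group (HFD) and the chow group (ND) both carry AOM/DSS in their titles, an abbreviation commonly read as azoxymethane and dextran sulfate sodium, which together induce inflammation-driven colon tumours in mice. Neither the age nor the strain of the mice is in the labels, nor whether each library is a separate animal, so p-values measure the spread between libraries, which may be partly technical.

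The ER folds secreted and membrane proteins, and an excess of unfolded protein there is sensed by IRE1, ATF6 and PERK. IRE1 splices the Xbp1 mRNA so that it encodes an active transcription factor, ATF6 is cut to release one, and PERK phosphorylates eIF2α, which slows translation in general while raising that of Atf4. XBP1 and ATF6 raise chaperones and degradation factors of the ER, whereas ATF4 raises amino acid synthesis and transport, Ddit3 (CHOP) and Trib3. In the intestine the response is best known from goblet and Paneth cells, whose secretory load is high. Gene-level values show neither the splicing of Xbp1 nor the translation of Atf4.

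ATF6 is known to bind, together with NF-Y, an ER stress element (ERSE, the letters CCAAT, any 9 bases, then CCACG) or its variant ERSE-II (ATTGG, any 1 base, then CCACG). RefSeq promoters on GRCm38.p6, from 250 bases before to 50 after the start, were found for 9 of the 10 genes, Manf being the exception. Both strands were searched for these elements, for the core of the unfolded protein response element (TGACGTG) and for a C/EBP-ATF element (TGATGNAAT). The stretches of Hspa5, Creld2 and Herpud1 are shown because they hold the matches, with the fixed bases of each in capitals.
Hspa5 (chr2:34771913-34772063, + strand): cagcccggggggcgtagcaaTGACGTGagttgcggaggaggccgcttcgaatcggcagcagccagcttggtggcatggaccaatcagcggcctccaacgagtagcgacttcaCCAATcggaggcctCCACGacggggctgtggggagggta
Creld2 (chr15:88819500-88819558, + strand): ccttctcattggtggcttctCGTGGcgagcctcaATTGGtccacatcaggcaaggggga
Herpud1 (chr8:94386357-94386407, + strand): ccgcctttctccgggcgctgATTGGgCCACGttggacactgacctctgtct
The ERSE lay 65 to 47 bases before the start in Hspa5, and 126 to 108 bases before it on the opposite strand in Creld2. The start is that of RefSeq, and for Hspa5 it lies inside the deposited row, which begins at base 34771970. The ERSE-II of Herpud1 lay 52 to 42 bases before the start. The ERSE occurs in 39 of 32851 mouse promoters of this length (0.119%), the ERSE-II in 12 (0.0365%), the TGACGTG core, matched in Hspa5 alone among these genes, in 2.01%, and the C/EBP-ATF element, matched in none of them, in 0.965%. A match of letters is a description of these windows and no evidence of binding.

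Library totals ran from 51961764 to 69007117 estimated counts. Between 46.2% and 52.9% of the low counts of a library (3 to 17) were multiples of 4, and the number of counts that 1 sequenced fragment is worth is not given in the sources used here. Levels below are CPM, counts divided by the TMM-scaled library size, with log2 fold changes ± SE from edgeR's quasi-likelihood fit and Benjamini-Hochberg adjusted p over all 14506 genes tested. A gene is said to have risen or fallen when that adjusted p was under 0.05. Of the 10 genes 9 were tested, and Trib3 missed the minimum of 1 FPKM on average. Epithelial markers were present throughout, with 9 of 9 tested and summed levels of 10683 to 12722 CPM in berberine, 8427 to 11188 in high-fat diet and 11622 to 12519 in chow libraries. Striated muscle markers summed to 1448 CPM in chow replicate 3 and to at most 52.7 in the other libraries. Adipocyte markers summed to 617 and 540 CPM in berberine replicates 1 and 2 and to at most 104 elsewhere.

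Under high-fat diet, Manf was higher than under chow, and the other tested ER stress genes did not pass the test, while 10 of 27 tested ATF4 and amino acid stress genes outside the 10 rose. In the berberine libraries, Creld2, Dnajb9, Herpud1 and Ddit3 were higher than under high-fat diet. Against chow, 5 of the 10 genes (Hspa5, Xbp1, Sdf2l1, Creld2 and Manf) had every berberine library above every chow library, with no adjusted p under 0.05. By edgeR, 1 of 9 tested genes rose and 0 fell under high-fat diet relative to chow, where 31.8% of all genes were called, with 15.2% rising and 16.6% falling. Of the 10 genes, 2 (Manf and the untested Trib3) had every high-fat diet library above every chow library. Among the 9 tested genes this held for 1, beside 23.2% of all tested genes. For berberine against high-fat diet 4 rose and 0 fell, where 30.7% of all genes were called and 15.8% rose. There the groups separated upward for 5 of the 10 genes (Creld2, Sdf2l1, Dnajb9, Herpud1 and Ddit3) and downward for 2 (Atf4 and the untested Trib3). Among the 9 tested genes 5 separated upward and 1 downward, against 24.8% and 25.6% of all tested genes. For berberine against chow 0 of 9 were called by edgeR, where 0.0483% of all genes were called. The groups separated upward for the 5 genes named above, against 8.73% of all tested genes, and downward for 0 of the 10, against 9.37%. In the same comparison 5 of 9 had an unadjusted p under 0.05, all upward, against 5.01% of all genes in that direction. DESeq2 called 3 of the 9 in that comparison, where it called 2.62% of all genes, and limma called 0. The median log2 fold change of the 9 tested genes was 0.24 under high-fat diet relative to chow, 0.54 for berberine against high-fat diet and 0.58 for berberine against chow, beside 0.00, -0.01 and 0.00 over all genes tested. Each pair of comparisons shares the libraries of 1 group, so their values are given side by side and not as independent results.

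**Figure D1:**
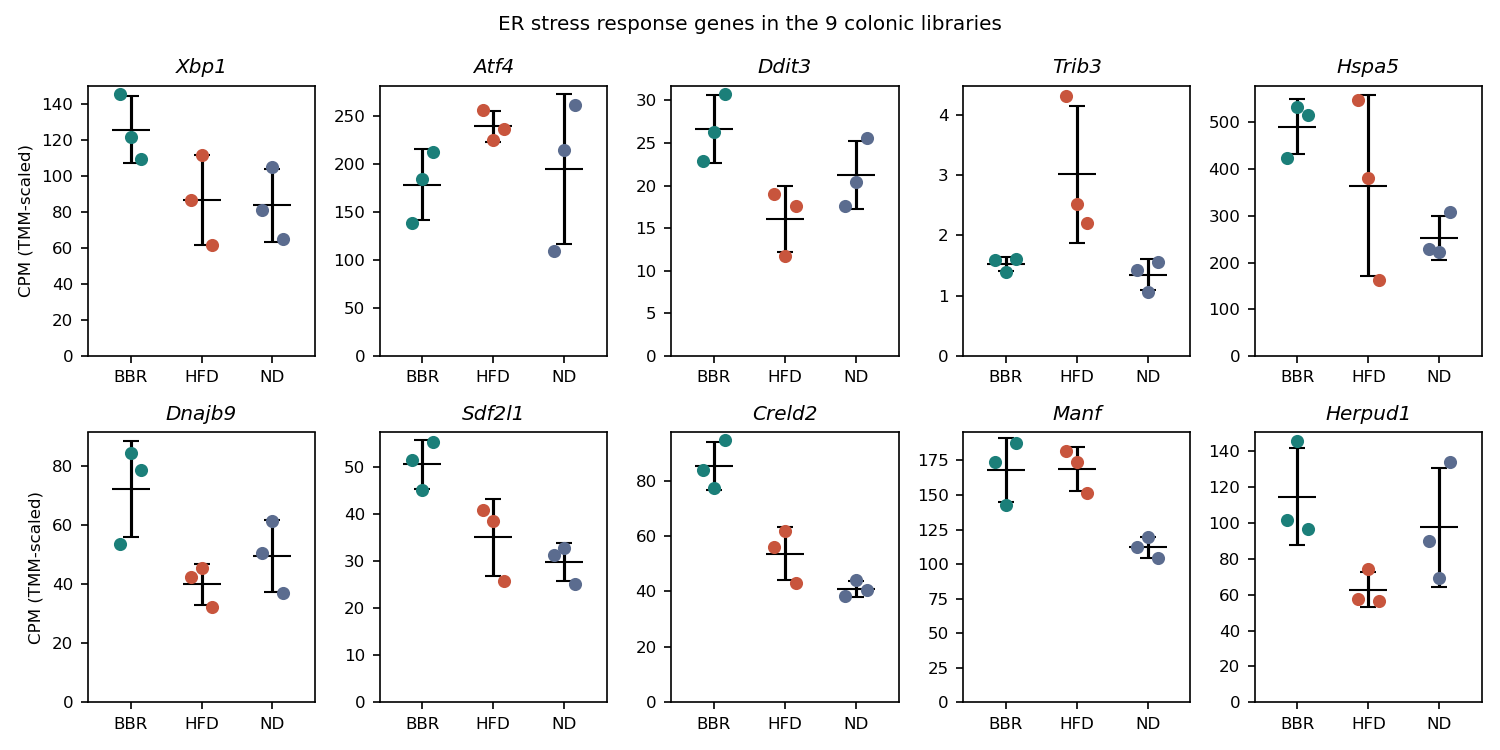
CPM (TMM-scaled, linear axis from 0) of each of the 10 genes in the 9 libraries, with 1 point per library and bars for the mean ± SD (n = 3 per group). BBR is berberine, HFD high-fat diet with AOM/DSS and ND chow with AOM/DSS. Creld2 lies between 77.4 and 94.5 CPM in berberine libraries and at or below 61.8 in all others, while Hspa5 spreads from 163 to 549 CPM under high-fat diet.

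Measured per length, Hspa5 and Atf4 had the highest means of the 10 and Trib3 the lowest in each group. Single libraries could differ. Manf (38.8 FPKM) was above Hspa5 (34.8 FPKM) in high-fat diet replicate 3, and Creld2 (54.5 FPKM) above Atf4 (52.4 FPKM) in berberine replicate 1. Deposited FPKM averaged 101 ± 10.9 for Hspa5 and 65.7 ± 12.1 for Atf4 in berberine libraries (SD, n = 3). Under high-fat diet they averaged 80.9 ± 43.9 and 94.5 ± 6.85 FPKM, and under chow 51.4 ± 10.9 and 70.5 ± 28.2 FPKM. The order of these 2 levels is within the spread of the libraries in high-fat diet and chow, where the ranges of the 2 genes overlapped. In berberine libraries Creld2 came next at 54.2 ± 4.40 FPKM, then Herpud1 at 42.8 ± 10.5, Manf at 41.4 ± 5.18, Sdf2l1 at 39.7 ± 3.57 and Xbp1 at 33.8 ± 5.83 FPKM, neighbours that did not separate beyond their spread. Dnajb9 averaged 24.6 ± 5.28 FPKM and Ddit3 13.5 ± 1.65 FPKM there, while Trib3 averaged 0.619 ± 0.0508, 1.32 ± 0.516 and 0.539 ± 0.127 FPKM in berberine, high-fat diet and chow libraries. In this bulk tissue, fewer cells of a type and less RNA per cell cannot be told apart.

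Among the transcription factors, Xbp1 (ENSMUSG00000020484, GRCm38 chromosome 11, 5520659 to 5525893, + strand), the factor of the IRE1 arm, had 146, 122 and 109 CPM in berberine libraries. It had 86.6, 112 and 61.7 CPM under high-fat diet and 81.4, 105 and 64.8 CPM under chow. All 3 berberine libraries lay above all chow libraries, and 1 high-fat diet library reached into the berberine range. The log2 fold change was 0.54 ± 0.25 for berberine against high-fat diet (adjusted p = 0.133), 0.59 ± 0.25 for berberine against chow (adjusted p = 0.439) and 0.05 ± 0.25 for high-fat diet against chow (adjusted p = 0.899).

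Atf4 (ENSMUSG00000042406, chromosome 15, 80255184 to 80257541, + strand), the factor translated when eIF2α is phosphorylated, had 139, 184 and 212 CPM in berberine libraries, 257, 225 and 236 CPM under high-fat diet and 109, 214 and 262 CPM under chow. The high-fat diet libraries were close together and above all berberine libraries, whereas the chow libraries spanned both groups. No comparison passed the test, with log2 fold changes of -0.42 ± 0.29 for berberine against high-fat diet (adjusted p = 0.303), -0.13 ± 0.29 for berberine against chow and 0.29 ± 0.29 for high-fat diet against chow.

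Ddit3, which encodes CHOP, a factor linked to cell death under prolonged stress (ENSMUSG00000025408, chromosome 10, 127290774 to 127296288, + strand), had 22.8, 26.3 and 30.7 CPM in berberine libraries. It had 19.0, 11.7 and 17.7 CPM under high-fat diet and 17.7, 20.4 and 25.5 CPM under chow. The berberine and high-fat diet ranges did not overlap, and Ddit3 was 1.65-fold higher in berberine libraries (log2 0.72 ± 0.23, adjusted p = 0.0417). That call was lost without berberine replicate 1 (adjusted p = 0.0524), 2 (0.0955) or 3 (0.133), without high-fat diet replicate 2 (0.0986) or 3 (0.0714) and without chow replicate 2 (0.0561). The log2 fold change was 0.33 ± 0.23 against chow for berberine and -0.40 ± 0.23 against chow for high-fat diet, neither past the test. On the opposite strand Ddit3 overlaps Mars1, whose total count was 221% of that of Ddit3. Mars1, a methionine tRNA synthetase gene, had 53.3, 40.5 and 35.8 CPM in berberine libraries and 61.5, 76.0 and 55.0 CPM under high-fat diet, the other direction. The labels describe a stranded kit, but whether counting used strand is not given in the sources used here.

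Trib3 (ENSMUSG00000032715, chromosome 2, 152337422 to 152344032, - strand), a pseudokinase gene induced by ATF4 and CHOP, was scarce, with estimated counts of 56 to 311 per library. It had 1.59, 1.38 and 1.60 CPM in berberine libraries, 4.31, 2.52 and 2.21 CPM under high-fat diet and 1.42, 1.06 and 1.56 CPM under chow. All high-fat diet libraries lay above the other 6, and high-fat diet replicate 1 stood highest. In edgeR without a filter, Trib3 had a log2 fold change of 1.20 ± 0.38 for high-fat diet against chow (adjusted p = 0.0644 over 34440 genes, of which 13.1% were called) and -0.99 ± 0.37 for berberine against high-fat diet (adjusted p = 0.131). With edgeR's own filter the first value was 1.21 ± 0.35 (adjusted p = 0.0355 over 22361 genes, of which 24.2% were called). Without high-fat diet replicate 1 and with no filter, it was 0.85 ± 0.39 for high-fat diet against chow (adjusted p = 0.238).

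Among the proteins of the ER lumen, Hspa5 (ENSMUSG00000026864, chromosome 2, 34771970 to 34777547, + strand) encodes BiP, the main chaperone of the ER and the classical reporter of the response. Hspa5 had 423, 533 and 517 CPM in berberine libraries, 549, 382 and 163 CPM under high-fat diet and 229.9, 222 and 308 CPM under chow. Berberine libraries lay above all chow libraries, while the high-fat diet libraries reached beyond both groups at either end. The log2 fold change was 0.96 ± 0.37 for berberine against chow (adjusted p = 0.411), 0.43 ± 0.37 for berberine against high-fat diet (adjusted p = 0.408) and 0.53 ± 0.37 for high-fat diet against chow (adjusted p = 0.315). With a library left out, high-fat diet against chow ran from 0.10 to 0.89 on the log2 scale (adjusted p from 0.0221 to 0.863). The value of 0.89 (adjusted p = 0.0221) came without high-fat diet replicate 3, the lowest library of its group for Hspa5.

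Creld2 (ENSMUSG00000023272, chromosome 15, 88819646 to 88826683, + strand), an ER protein gene activated by ATF6, whose promoter stretch with an ERSE is printed above, had 83.7, 77.4 and 94.5 CPM in berberine libraries. It had 56.1, 61.8 and 43.1 CPM under high-fat diet and 38.4, 44.1 and 40.5 CPM under chow. Berberine libraries were above all others. Creld2 was 1.59-fold higher in berberine than in high-fat diet libraries (log2 0.67 ± 0.15, adjusted p = 0.0123), a call lost only without berberine replicate 3 among the 9 libraries (adjusted p = 0.0514). Against chow it was 2.08-fold in berberine libraries (log2 1.06 ± 0.15, unadjusted p = 9.29e-05), the highest of the 9 fold changes, with an adjusted p of 0.0793 by edgeR and of 3.16e-06 by DESeq2. High-fat diet against chow gave a log2 fold change of 0.39 ± 0.15 (adjusted p = 0.0852). With a library left out it ran from 0.28 to 0.53 (adjusted p from 0.0267 to 0.234). The value of 0.53 (adjusted p = 0.0267) came without high-fat diet replicate 3, the lowest library of its group for Creld2.

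Sdf2l1 (ENSMUSG00000022769, chromosome 16, 17130138 to 17132383, - strand), a stress-induced component of ER chaperone complexes, had 51.4, 45.1 and 55.3 CPM in berberine libraries, 40.9, 38.4 and 25.7 CPM under high-fat diet and 31.3, 32.9 and 25.2 CPM under chow. Berberine libraries lay above both other groups, which overlapped each other. The log2 fold change was 0.53 ± 0.19 for berberine against high-fat diet (adjusted p = 0.0697 by edgeR and 0.0494 by DESeq2) and 0.77 ± 0.20 for berberine against chow (adjusted p = 0.297 by edgeR and 0.0359 by DESeq2). High-fat diet against chow gave 0.24 ± 0.19.

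Dnajb9 (ENSMUSG00000014905, chromosome 12, 44205559 to 44210326, - strand), a co-chaperone gene known as a target of XBP1, had 53.8, 84.5 and 78.8 CPM in berberine libraries, 42.4, 45.6 and 32.2 CPM under high-fat diet and 50.5, 61.5 and 37.1 CPM under chow. It was 1.81-fold higher in berberine than in high-fat diet libraries (log2 0.85 ± 0.24, adjusted p = 0.0278), with no overlap of the groups. The call was lost without berberine replicate 2 (adjusted p = 0.0934) or 3 (0.0834) and without high-fat diet replicate 1 (0.0546) or 3 (0.0852). Against chow the log2 fold change was 0.54 ± 0.24 for berberine and -0.31 ± 0.24 for high-fat diet, both short of the threshold and with overlapping groups.

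Manf (ENSMUSG00000032575, chromosome 9, 106838312 to 106891915, - strand), a protein of the ER that is secreted under stress, had 174, 143 and 187 CPM in berberine libraries, 182, 174 and 151 CPM under high-fat diet and 112, 119.8 and 105 CPM under chow. Both the berberine and the high-fat diet libraries lay above all chow libraries and overlapped each other. Manf was 1.51-fold higher under high-fat diet than under chow (log2 0.59 ± 0.13, adjusted p = 0.0108), a call kept with each library left out in turn (adjusted p between 0.0103 and 0.0375). Berberine against chow gave 0.58 ± 0.13 (adjusted p = 0.254 by edgeR and 0.0155 by DESeq2), and berberine against high-fat diet -0.01 ± 0.13 (adjusted p = 0.964). The row of Manf spans Rbm15b on the same strand, a gene of 51.2% of its total count, which had 101, 105 and 107 CPM under high-fat diet and 53.8, 58.2 and 48.9 CPM under chow. Rbm15b had a log2 fold change of 0.96 ± 0.10 (adjusted p = 0.000464) for high-fat diet against chow, and its part in the value of Manf was not tested.

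Herpud1 (ENSMUSG00000031770, chromosome 8, 94386438 to 94395377, + strand) encodes an ER membrane protein of the degradation complex, and its promoter held the ERSE-II printed above. It had 101, 146 and 96.4 CPM in berberine libraries, 57.6, 74.1 and 56.7 CPM under high-fat diet and 89.6, 69.0 and 134 CPM under chow. Berberine libraries were above all high-fat diet libraries, and the chow libraries spanned both. Herpud1 was 1.82-fold higher in berberine than in high-fat diet libraries (log2 0.87 ± 0.26, adjusted p = 0.0355), with the call lost when any of 6 libraries was left out. Those were berberine replicates 1 (adjusted p = 0.0556), 2 (0.124) and 3 (0.0518), high-fat diet replicates 1 (0.0965) and 3 (0.102) and chow replicate 1 (0.052). High-fat diet against chow gave a log2 fold change of -0.63 ± 0.26 (adjusted p = 0.0964). With a library left out it ran from -0.83 to -0.33 (adjusted p from 0.0416 to 0.298). The value of -0.83 (adjusted p = 0.0416) came without chow replicate 2, the lowest library of its group for Herpud1. Berberine against chow gave 0.23 ± 0.26 (adjusted p = 0.785).

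**Figure D2:**
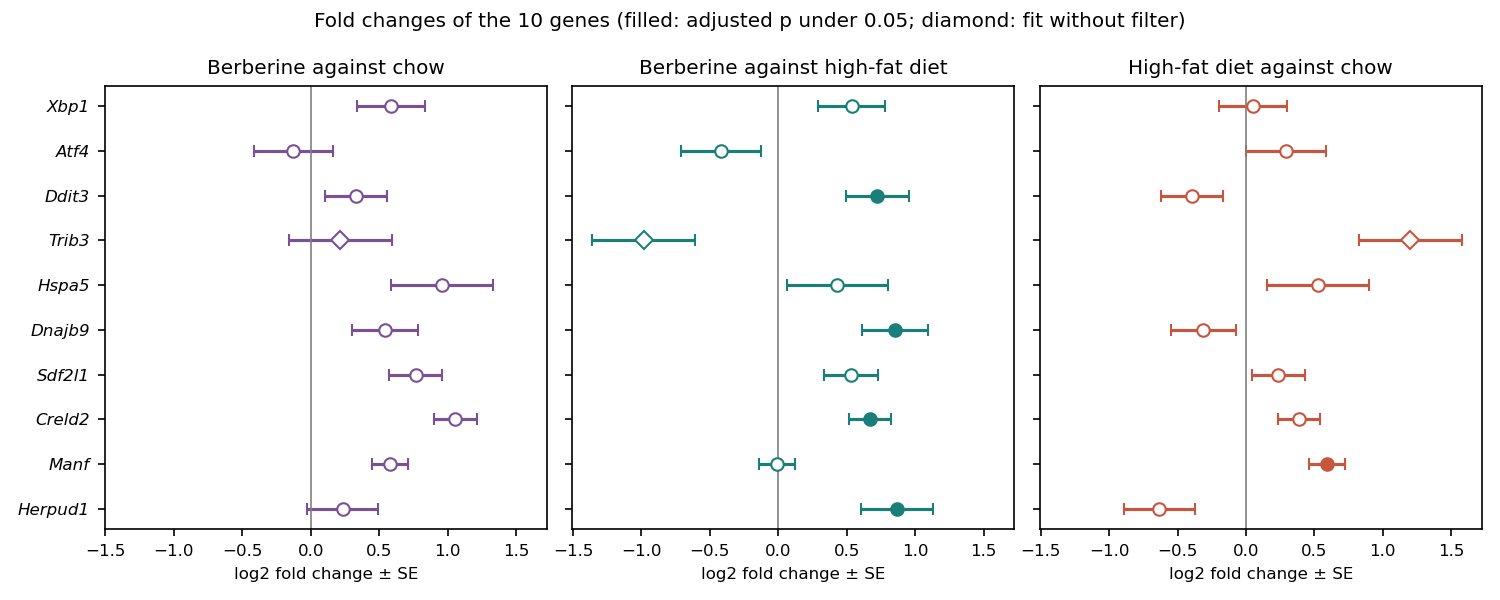
Log2 fold change ± SE (edgeR, n = 3 per group) of the 10 genes in the 3 comparisons, with filled points for an adjusted p under 0.05 and diamonds for Trib3, taken from the fit without a filter. Creld2, Dnajb9, Herpud1 and Ddit3 are filled for berberine against high-fat diet, Manf for high-fat diet against chow, and none for berberine against chow.

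The libraries of a group differed in these genes as well. High-fat diet replicate 3 was the lowest of its group for 8 of the 10 genes and the highest for 0, whereas high-fat diet replicate 1 was the highest for 6. Within the berberine group the lowest values were shared, with 4, 4 and 2 genes in replicates 1, 2 and 3. In high-fat diet replicate 3 mitochondrial transcripts held 9.41% of counts, against 4.93% and 4.70% in high-fat diet replicates 1 and 2. Across the berberine libraries that share ran from 5.94% to 7.29%, and across the chow libraries from 5.87% to 8.65%. Goblet cell markers summed to 1054 CPM in high-fat diet replicate 3, against 6797 and 4331 CPM in high-fat diet replicates 1 and 2. Smooth muscle markers summed to 7325 CPM in replicate 3, against 1544 and 2380 CPM in replicates 1 and 2, and mast cell markers to 303 CPM, against 4277 and 1019 CPM. The part of any of these measures in the low values of that library was not tested.

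**Figure D3:**
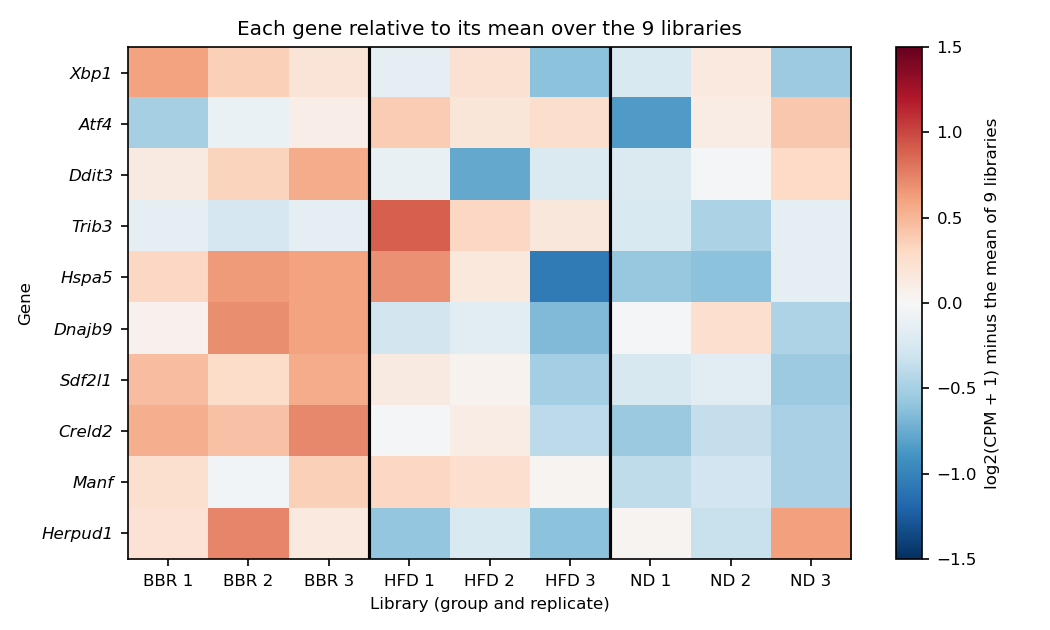
Each gene's log2(CPM + 1) minus its mean over the 9 libraries (colour scale), with genes in rows and libraries in columns. High-fat diet replicate 3 is the lowest of its group for 8 of 10 genes, and the berberine columns hold the highest group of libraries for Creld2 and Sdf2l1.

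Markers of many cell types, secretory and other, moved with 2 of these comparisons. Over all tested genes 15.8% rose and 14.9% fell for berberine against high-fat diet. For high-fat diet against chow 15.2% rose and 16.6% fell, and for berberine against chow 0.0483% were called. Goblet cell markers, 12 of 12 tested, summed to between 14954 and 26993 CPM in berberine libraries, between 1054 and 6797 CPM under high-fat diet and between 10721 and 32138 CPM under chow. Of them 8 rose and 0 fell for berberine against high-fat diet, 0 rose and 8 fell for high-fat diet against chow, and 0 were called for berberine against chow. Plasma cell markers, 9 of 10 tested, summed to between 1022 and 2442 CPM in berberine libraries, between 907 and 1303 CPM under high-fat diet and between 687 and 1582 CPM under chow. Of them 4 rose and 1 fell for berberine against high-fat diet. Paneth cell markers, 8 of 8 tested, summed to between 69.0 and 147 CPM in berberine libraries, between 6729 and 13783 CPM under high-fat diet and between 77.9 and 408 CPM under chow, with 0 rising and 7 falling for berberine against high-fat diet. Pla2g2a alone held 5987 to 13280 CPM of the Paneth cell sum under high-fat diet. No marker of these 3 cell types was at 0 in every library. Absorptive colonocyte markers, 9 of 9 tested, summed to between 2888 and 4425 CPM in berberine libraries, between 405 and 744 CPM under high-fat diet and between 4046 and 9694 CPM under chow. Of them 8 rose and 0 fell for berberine against high-fat diet, and 0 rose and 9 fell for high-fat diet against chow. Mast cell markers, 6 of 7 tested, summed to between 64.3 and 82.7 CPM in berberine libraries, between 303 and 4277 CPM under high-fat diet and between 60.4 and 135 CPM under chow. Of them 1 rose and 5 fell for berberine against high-fat diet, and 5 rose and 1 fell for high-fat diet against chow. Kit went the other way from the rest and held most of the berberine and chow sums. It had 57.0, 71.0 and 71.7 CPM in berberine libraries, 40.9, 24.3 and 28.1 CPM under high-fat diet and 70.9, 132 and 58.2 CPM under chow. For berberine against high-fat diet 6 of 6 tested T cell markers, 6 of 6 follicular B cell markers and 4 of 5 enteroendocrine markers rose, and for high-fat diet against chow 5, 5 and 4 of them fell. Smooth muscle markers, 7 of 7 tested, summed to between 4636 and 5469 CPM in berberine libraries and between 9409 and 13068 CPM under chow, with 0 called. The smooth and striated muscle sums were lower in every berberine than in every chow library, and the sums of the other cell types overlapped between those groups. Plasma cell markers had a median log2 fold change of 0.56 for berberine against chow, beside 0.58 for the ER stress genes, with 0 called. Such medians were also positive for the follicular B cell (0.79), macrophage (0.48), neutrophil (0.47), heat shock (0.89), mast cell (1.72) and adipocyte (2.80) lists. They were negative for others, such as the absorptive colonocyte (-0.41) and smooth muscle (-1.14) lists. Mzb1, an ER protein gene of plasma cells named after its values were seen, had 37.4, 44.0 and 38.8 CPM in berberine libraries and 11.6, 15.9 and 32.7 CPM under chow. Not every plasma cell marker separated in this way. Sdc1 had 151, 142 and 186 CPM in berberine libraries and 184, 268 and 171 CPM under chow, and Txndc5 and Fkbp11 overlapped as well. The part of these cell types in the values of the ER stress genes was not tested in any of the 3 comparisons. Heat shock genes of the cytosol and mitochondria, best known as targets of HSF1, summed to between 2808 and 3502 CPM in berberine libraries. Their sums were between 2276 and 2545 CPM under high-fat diet and between 1614 and 1728 CPM under chow. Hspa8 alone held 1300 to 1566 CPM of that sum under high-fat diet. Of the 9 heat shock genes 4 rose and 0 fell for berberine against high-fat diet, and 4 rose and 2 fell for high-fat diet against chow. For berberine against chow 1 rose (Hsph1), where 7 of all 14506 tested genes were called. Those that fell were Hspa1a, with 9.62, 4.81 and 10.4 CPM under high-fat diet against 48.0, 33.7 and 25.6 CPM under chow, and its near-identical copy Hspa1b, so the split of reads between them is uncertain.

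A further 92 genes of the pathway were read in 6 lists, and 89 of them were tested. For high-fat diet against chow 22 rose and 6 fell (15.2% and 16.6% of all genes), for berberine against high-fat diet 12 rose and 13 fell (15.8% and 14.9% of all genes), and for berberine against chow 0 were called by edgeR. Their median log2 fold changes were 0.14, -0.02 and 0.20 in those comparisons, against 0.00, -0.01 and 0.00 over all genes tested. In the last comparison 21 of the 89 had an unadjusted p under 0.05, against 10.9% of all genes, DESeq2 called 7 and limma 0.

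In the list of ATF4 and amino acid stress genes, 27 of 30 were tested, and those called mostly rose under high-fat diet and fell in berberine libraries relative to it. Under high-fat diet relative to chow 10 rose and 1 fell, with a median log2 fold change of 0.61, and 15.2% of all genes rose. For berberine against high-fat diet 1 rose and 10 fell, with a median of -0.56, and 14.9% of all genes fell. Slc7a5, a carrier of large neutral amino acids, had 22.3, 17.5 and 18.2 CPM in berberine libraries, 76.7, 72.0 and 49.5 CPM under high-fat diet and 17.3, 17.9 and 16.8 CPM under chow. It rose by 1.93 ± 0.19 for high-fat diet against chow (adjusted p = 0.000326) and fell by 1.77 ± 0.19 for berberine against high-fat diet (adjusted p = 0.000411) on the log2 scale. Stc2, a secreted glycoprotein gene, rose by 1.94 ± 0.29 and fell by 2.80 ± 0.30 in those comparisons, and Ddit4, an inhibitor of mTORC1, rose by 1.65 ± 0.23 and fell by 1.56 ± 0.23. The high-fat diet libraries lay above all others for these 3 genes, the pattern that Trib3 showed at its low level, whereas the level of Atf4 itself did not pass the test.

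ER chaperones, disulfide isomerases and other folding factors, 14 of 14 tested, gave 3 genes that rose and 1 that fell under high-fat diet relative to chow (median 0.20). For berberine against high-fat diet 4 rose and 1 fell (median 0.11). Over all genes 15.2% rose for high-fat diet against chow and 15.8% for berberine against high-fat diet. Hyou1, a large chaperone of the BiP system, rose under high-fat diet by 1.26 ± 0.28 on the log2 scale (adjusted p = 0.00993), with 81.4, 128 and 132 CPM under high-fat diet against 55.9, 55.3 and 30.7 CPM under chow. Pdia4, a disulfide isomerase, rose by 0.74 ± 0.17 and Ppib, a prolyl isomerase, by 0.49 ± 0.14. In berberine libraries Ero1b, an oxidase that feeds disulfide formation, rose against high-fat diet by 1.29 ± 0.25 (adjusted p = 0.0055), Hsp90b1, the HSP90 of the ER, by 0.58 ± 0.16, and Dnajc3, a co-chaperone, by 0.57 ± 0.16. Hsp90b1 had 867, 830.2 and 1107 CPM in berberine libraries, 677, 643 and 557 CPM under high-fat diet and 564, 594 and 479 CPM under chow.

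ER-associated degradation, 14 of 14 tested, gave 3 genes that rose and 0 that fell for berberine against high-fat diet (median 0.24), and 1 that rose and 2 that fell for high-fat diet against chow (median -0.10). These counts are near the shares over all genes, 15.8% rising for berberine against high-fat diet, and 15.2% rising and 16.6% falling for high-fat diet against chow. Derl3, a channel component that plasma cells also express strongly, had 8.99, 11.7 and 10.3 CPM in berberine libraries, 1.87, 2.34 and 1.03 CPM under high-fat diet and 2.76, 3.19 and 5.90 CPM under chow. It rose by 2.57 ± 0.40 for berberine against high-fat diet (adjusted p = 0.0024) and fell by 1.18 ± 0.39 for high-fat diet against chow (adjusted p = 0.0477) on the log2 scale. Edem1, which sorts misfolded glycoproteins, rose by 1.07 ± 0.20 and fell by 0.62 ± 0.20 in those comparisons, and Syvn1, the ubiquitin ligase HRD1, rose by 0.53 ± 0.12 for berberine against high-fat diet. Vcp, the segregase that extracts proteins from the membrane, rose by 0.71 ± 0.16 for high-fat diet against chow. Herpud1, the gene of this group among the 10, had the same directions as Derl3 and Edem1 in both comparisons, with its high-fat diet value short of the threshold.

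Between berberine and chow, where edgeR called none of these genes, every berberine library lay above every chow library for 8 of 14 folding factors and 8 of 14 degradation factors, and 0 showed the reverse. Of all tested genes 8.73% separated upward and 9.37% downward. Among the 10 genes the same held for 5, and among the 27 tested ATF4 and amino acid stress genes for 3, with 4 separating downward. The median log2 fold change was 0.45 for folding factors, 0.26 for degradation factors and 0.15 for the ATF4 list. DESeq2 called 3 folding factors (Hsp90b1, Hyou1 and Pdia4), 2 degradation factors (Syvn1 and Derl3) and the translocon-associated gene Ssr2 as higher and Nupr1, a stress-induced chromatin factor gene, as lower, names given after their values were seen.

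Most sensors, like most tested genes, did not pass the test. Over all genes 31.8% were called for high-fat diet against chow and 30.7% for berberine against high-fat diet. In the list of sensors and of eIF2α kinases and phosphatases, 10 of 10 tested, 1 rose and 1 fell for high-fat diet against chow, and 2 rose and 0 fell for berberine against high-fat diet. Ern2, the IRE1 of goblet and other mucous cells, accounted for the strongest of these, with 64.5, 62.0 and 59.5 CPM in berberine libraries, 14.9, 23.4 and 17.4 CPM under high-fat diet and 63.9, 90.2 and 33.5 CPM under chow. It rose by 1.74 ± 0.33 for berberine against high-fat diet (adjusted p = 0.00519) and fell by 1.75 ± 0.33 for high-fat diet against chow (adjusted p = 0.00498), the directions of the goblet cell sums given above. Atf6b, a relative of ATF6, rose by 0.53 ± 0.13 under high-fat diet, and Eif2ak1, the heme-regulated kinase, rose by 0.40 ± 0.13 in berberine libraries against high-fat diet. None of the widely expressed sensors Ern1, Atf6 and Eif2ak3 (PERK) passed the test in any comparison, with log2 fold changes between -0.14 and 0.34.

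In translocation and transport out of the ER, 16 of 16 tested, 4 rose and 0 fell for high-fat diet against chow, where 15.2% of all genes rose, and 0 were called for berberine against high-fat diet, where 30.7% were. Ssr2, of the translocon-associated complex, rose by 0.98 ± 0.16, Sec23b, of the COPII coat, by 0.54 ± 0.16 and Sec61a1, the pore of the translocon, by 0.46 ± 0.14 on the log2 scale. Of the 8 cell death genes tested, 3 rose and 1 fell for high-fat diet against chow, and 2 rose and 2 fell for berberine against high-fat diet, beside 31.8% and 30.7% of all genes called. Bcl2l11 (BIM), a target of CHOP, had 30.2, 34.1 and 31.6 CPM in berberine libraries, 62.3, 74.5 and 62.2 CPM under high-fat diet and 28.2, 26.8 and 28.7 CPM under chow. The mean of Ddit3 was lowest under high-fat diet, but it did not pass the test against chow by edgeR (adjusted p = 0.220). A link between these genes was not tested. Txnip, a thioredoxin-binding protein gene, had 718, 814 and 679.8 CPM in berberine libraries, 181, 202 and 146 CPM under high-fat diet and 1150.1, 1208 and 608 CPM under chow. Bax, a pore-forming BCL2 relative, rose by 0.90 ± 0.22 for high-fat diet against chow and fell by 1.06 ± 0.22 for berberine against high-fat diet.

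**Figure D4:**
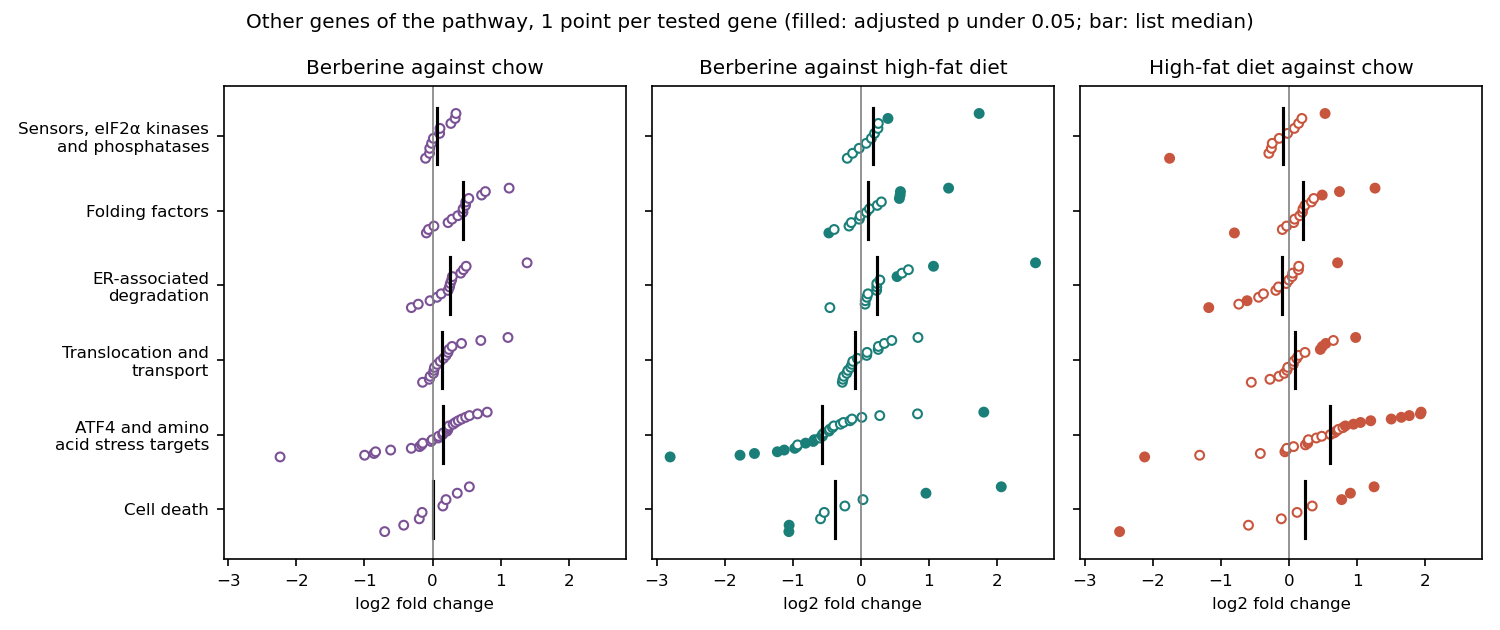
Log2 fold changes (edgeR) of the 89 tested genes in the 6 other pathway lists, with 1 point per gene, filled where the adjusted p was under 0.05, and a bar at each list's median. The ATF4 and amino acid stress list has medians of 0.61 for high-fat diet against chow and -0.56 for berberine against high-fat diet, while the folding factors have their highest median, 0.45, for berberine against chow.

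Genes whose level ran most like that of Hspa5 or Trib3 were sought among 12775 other tested genes with a Pearson correlation of log2(CPM + 1) over the 9 libraries, given as a measure of likeness with no test. Among the nearest to Hspa5 were Bcr, Pdpn, Havcr2 and Rasip1, with r between 0.90 and 0.95, and between 0.84 and 0.95 for deviations from the group means. Bcr, for example, had 60.0, 62.7 and 59.0 CPM in berberine libraries, 61.3, 57.7 and 42.5 CPM under high-fat diet and 48.1, 44.6 and 46.2 CPM under chow, again with its lowest value in high-fat diet replicate 3. Nearest to Trib3 were Sox18, Cp, Emilin2, Dnajc6 and Kcnj2, with r between 0.97 and 0.98, and between 0.92 and 0.93 for the deviations. Cp, which encodes ceruloplasmin, had 17.6, 15.3 and 16.1 CPM in berberine libraries, 78.6, 39.3 and 25.2 CPM under high-fat diet and 13.7, 14.0 and 17.9 CPM under chow. The points of each correlation share their libraries, and high-fat diet replicates 1 and 3 hold the highest and lowest level of Hspa5. For Trib3 the highest is high-fat diet replicate 1 and the lowest chow replicate 2.

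Outside the 10 genes, 14 tested genes had an ERSE in their promoter. For berberine against high-fat diet 4 of them rose and 1 fell (median log2 fold change 0.23), where 16.5% of the 10040 tested genes with a promoter entry rose and 15.8% fell. For berberine against chow 0 were called by edgeR, with a median of 0.31 and 10 of 14 positive, against a median of 0.00 and 49.8% positive among the 10040. High-fat diet against chow gave 1 that rose and 2 that fell, with a median of 0.06. The 8 tested genes with an ERSE-II gave 0 calls for berberine against high-fat diet (median 0.19), 0 for berberine against chow (median -0.06, 3 of 8 positive) and 1 that rose for high-fat diet against chow (median -0.24). Of the 335 with the TGACGTG core 15.5% rose and 14.0% fell for berberine against high-fat diet, and their medians lay between 0.02 and 0.03 in the 3 comparisons. The 51 tested genes with a C/EBP-ATF element gave medians of 0.02, -0.02 and 0.03 for high-fat diet against chow, berberine against high-fat diet and berberine against chow.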

How the data were processed

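Poly(A) RNA of mouse colonic tissue was sequenced as stranded, paired-end libraries with molecular identifiers, per the labels' protocols. Build GRCm38 and the tools StringTie 1.3.4d, HISAT2 2.0.4, edgeR, DESeq2, Cutadapt 1.9 and UMI-tools are named per the submitters' processing notes, without the step each served. The authors deposited an estimated count and an FPKM value per gene and library. The deposited estimated counts are whole numbers, not normalised between libraries, and low ones pile up at multiples of 4. Where the count is 0 the deposited FPKM is 0.0001. Counts as deposited were fitted with edgeR 4.0.16 (quasi-likelihood, TMM, 9 libraries) in R 4.3.3, keeping genes that averaged 1 FPKM or more over the libraries, with DESeq2 1.42.0 and limma 3.58.1 (log2(FPKM + 1) or log2(FPKM + 0.1)) as alternatives. The edgeR fit was also run on simulated counts, for berberine against chow only. Those counts were drawn from the fit's own model, without the pile-up at multiples of 4. That run therefore cannot show how well the model describes the deposited counts. Replicates of a group differed by more than sampling noise. Counting error only is covered by depth. All 10 genes are named in full, and of each other list the 3 called genes with the smallest p per comparison. Of the 5 genes most like Hspa5 in pattern, 1 is not reported here. The genes, lists and tests were chosen with earlier results of these data known. Ero1a and Ero1b were matched through older symbols.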

Additional observations from a re-analysis of the deposited data

How the results depend on the processing

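Of the 19 alternatives, Manf for high-fat diet against chow kept its call in all, and Creld2 for berberine against high-fat diet in all but 1. Of the 10 genes, 2 were called for high-fat diet against chow with library totals alone, with edgeR's own filter and with limma at either pseudocount, in place of 1, and 1 to 3 with a library left out. For berberine against high-fat diet 2 were called with library totals alone or with no filter, in place of 4, and 0 to 4 with a library left out (0 without berberine replicate 3). For berberine against chow DESeq2 called 3, in place of 0, and 7 in place of 0 of the other pathway genes, and 0 to 0 were called with a library left out in either set. Other pathway genes called with a library left out ranged from 17 to 26 for high-fat diet against chow (28 with all libraries, 17 without high-fat diet replicate 1). They ranged from 15 to 28 for berberine against high-fat diet (25 with all libraries, 15 without berberine replicate 3 and 16 without high-fat diet replicate 1). Over all genes, berberine against chow gave 7 calls, 380 by DESeq2, 2 with median-ratio size factors, edgeR's own filter, counts divided by 4, only the 2 groups compared or the replicate block, and 1 to 7 with a library left out. Berberine against high-fat diet gave 4460, and 2960 to 4740 with a library left out (2960 without berberine replicate 2), and high-fat diet against chow 4613, and 3573 to 4325. Signs changed with a library left out for values near 0. Xbp1 for high-fat diet against chow ran from -0.17 to 0.26, Manf for berberine against high-fat diet from -0.10 to 0.10 and Atf4 for berberine against chow from -0.42 to 0.15. The cause of these differences was not tested. Scaling by library totals alone moved the median of all genes to 0.13 for high-fat diet against chow and -0.12 for berberine against high-fat diet, and the share of calls that were higher was 59.8% in place of 47.7% and 40.9% in place of 51.4%. Same-numbered libraries of different groups did not deviate together (correlations from -0.10 to 0.16, 2 of 9 above 0.1), so the numbers were not taken as pairs. With the replicate block Herpud1 lost its call for berberine against high-fat diet (adjusted p = 0.0623) and Xbp1 gained one (0.0398).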
